A study of Homo sapiens with 10 samples.

Results

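The actin cytoskeleton genes are 47 genes for actin and for the proteins that nucleate, cap, bind and cross-link it. They include the non-muscle myosin II motor, focal adhesion adaptors, the small GTPase RHOA with its effectors, and the transcription factor SRF with its coactivators. They were chosen by gene symbol, with earlier results of these data known, and all 47 were found among the 27942 genes of the FPKM table. Their messenger RNA was measured by sequencing in MCF10A, a cell line of human mammary epithelium that does not form tumours, kept for 24 h on polyacrylamide gels coated with DOPA and human fibronectin. The groups are gels of 60, 6 and 1 kPa in medium of 5 mM glucose, gels of 400 Pa in medium of 25 mM glucose, and gels of 400 Pa in medium of 5 mM glucose. Each group has 2 libraries that the labels name biological replicates, each made from a pool of 4 gel cultures. All groups share the horse serum, epidermal growth factor, insulin, hydrocortisone and cholera toxin of the growth medium. The labels do not say whether the extra glucose of the 25 mM medium was matched by another sugar for osmolarity, and they give no recipe for the 1 kPa gel.

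Actin monomers add to filaments at one end and leave at the other. Profilin and thymosins hold the monomer pool, cofilin and gelsolin sever filaments, capping protein closes the fast-growing ends, and the Arp2/3 complex starts branches on existing filaments. Formins such as the product of DIAPH1 build unbranched filaments that tropomyosins coat and myosin II pulls on. RHOA activates DIAPH1 and the kinases ROCK1 and ROCK2, which raise myosin II activity, and the contractile bundles end at focal adhesions that bind the matrix. MKL1 and MKL2 (also called MRTF-A and MRTF-B) are held by free actin monomers. Once released, they enter the nucleus and drive SRF at CArG boxes in promoters of many cytoskeletal genes, actin included. Stiff substrates are known to favour stress fibres and focal adhesions in epithelial cells in culture.

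Because SRF acts through CArG boxes, the promoter windows that hold one are shown, so that the values of the genes that carry a box can be read beside their sequence. RefSeq promoters (GRCh38.p14), running from 250 bases before to 50 bases after an annotated start, were listed for 43 of the 47 genes, and ACTB, TAGLN, ARPC1B and MYL9 had no entry. A CArG box, a class that is its own reverse complement and so covers both strands, was found at 7 of 74 member promoters (9.46%) and at 454 of all 35116 promoters (1.29%). The 7 promoters belong to 7 genes, and each window below is written 5′ to 3′ on the strand of its gene, with the box in capitals. The window of ACTG1 is chr17:81512859-81512918 (minus strand), that of TPM4 chr19:16067340-16067399 (plus strand, 1 of 3 starts), that of ACTN1 chr14:68977703-68977762 (minus strand, 1 of 4 starts) and that of FLNA chrX:154374694-154374753 (minus strand). The window of CNN2 is chr19:1026494-1026553 (plus strand), that of SRF chr6:43171214-43171293 (plus strand, 1 of 2 starts) and that of ROCK2 chr2:11345476-11345535 (minus strand, 1 of 2 starts).
ACTG1: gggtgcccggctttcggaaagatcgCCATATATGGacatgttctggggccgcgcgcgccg
TPM4: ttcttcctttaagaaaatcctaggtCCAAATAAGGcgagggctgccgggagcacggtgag
ACTN1: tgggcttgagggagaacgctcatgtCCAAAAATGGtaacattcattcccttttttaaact
FLNA: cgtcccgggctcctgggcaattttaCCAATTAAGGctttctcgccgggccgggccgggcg
CNN2: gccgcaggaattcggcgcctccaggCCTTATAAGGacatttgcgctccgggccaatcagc
SRF: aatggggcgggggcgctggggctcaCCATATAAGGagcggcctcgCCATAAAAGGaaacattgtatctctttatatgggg
ROCK2: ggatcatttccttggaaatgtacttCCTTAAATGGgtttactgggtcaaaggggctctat
The SRF promoter is the only one of these 7 windows with 2 boxes, at -30 to -21 and -10 to -1 from the start. The boxes of ACTG1 and FLNA both lie at -94 to -85, that of CNN2 at -89 to -80 and that of ROCK2 at -73 to -64. A match is a run of letters and says nothing on binding of the factor in these cells.

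Mapped reads, in units of 1e6, were 7.14 and 5.86 on 60 kPa, 4.97 and 2.98 on 6 kPa, 11.3 and 5.75 on 1 kPa, 7.09 and 6.34 with 25 mM glucose, and 28.6 and 13.0 on 400 Pa at 5 mM. The deeper library of each group comes first in all pairs of values. The member with the fewest reads in every library was MYL9, with 41 to 667. Levels are FPKM multiplied by 1 factor per library (scaled FPKM). Differences are of log2(scaled FPKM + 1), a scale that understates the change of low genes, with a standard error (SE) from limma. Adjusted p-values are Benjamini-Hochberg values over all 12817 genes tested, with a threshold of 0.05. The 2 libraries on 6 kPa lay far apart: their median absolute difference over the members was 0.29 on the log2 scale, against 0.05 to 0.07 in the other groups. Libraries also deviated from the mean of all libraries along the GC content of the transcripts. Spearman correlations across genes were -0.58 and -0.60 on 60 kPa, 0.62 and -0.31 on 6 kPa, 0.62 and 0.60 on 1 kPa, -0.65 and -0.67 with 25 mM glucose, and 0.61 and 0.66 on 400 Pa. Many results are therefore also given after a correction for GC content (a spline per library), and most counts also without the 6 kPa libraries. The deviation along GC content ran with the groups compared, and the 400 Pa libraries at 5 mM had the most reads. A technical part of it thus cannot be told apart from effects of gel or glucose, and the correction may remove both.

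Levels of the members ranged widely. In scaled FPKM averaged over the 10 libraries, 19 of 47 were at 100 or more, 24 between 10 and 100 and 4 under 10. Thymosin TMSB10 ranked 1 of all genes at 2818 scaled FPKM, ACTB ranked 4 at 2430.2, ACTG1 ranked 9 at 1604, the myosin light chain MYL6 ranked 46, profilin PFN1 ranked 65 and cofilin CFL1 ranked 71. The lowest members were MKL2 at 5.57, MKL1 at 8.51, ROCK1 at 8.55 and ROCK2 at 7.80 scaled FPKM. Together the members took 3.16 and 3.12% of exon reads on 60 kPa, 2.78 and 2.76% with 25 mM glucose and 3.41 and 3.48% on 400 Pa at 5 mM.

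**Figure D1:**
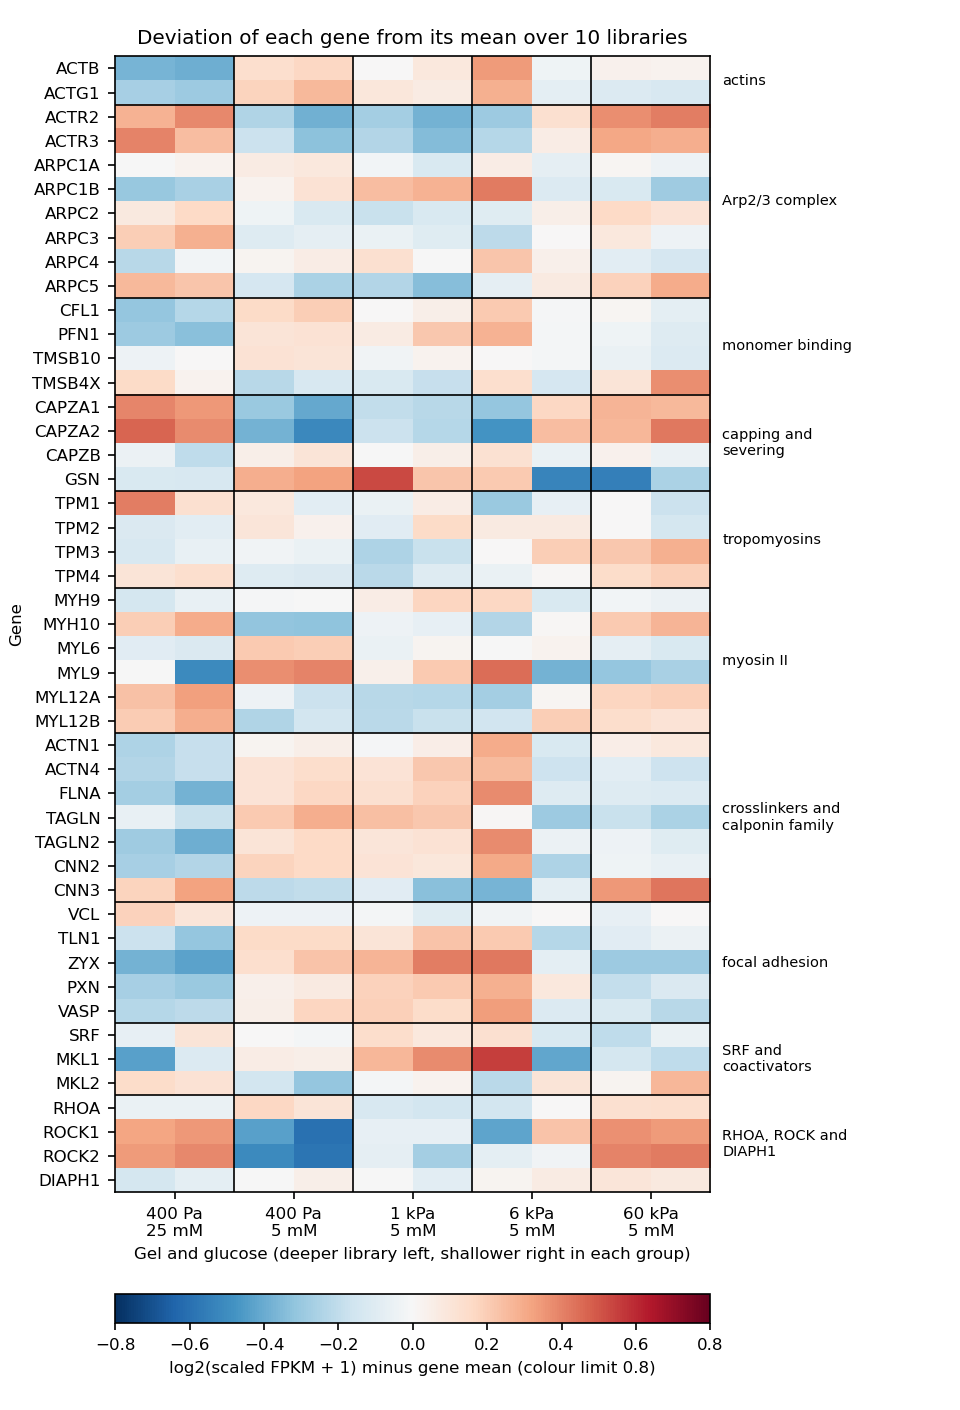
Deviation of each of the 47 genes (rows, by role) from its own mean over 10 libraries, as log2(scaled FPKM + 1), with 1 column per library. ROCK1, ROCK2, CAPZA2 and ACTR2 are above their mean in all 4 libraries of 60 kPa and 25 mM glucose and below it in both 400 Pa libraries at 5 mM, and the 2 libraries on 6 kPa differ for many genes.

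Cells on 60 kPa gels, set against 400 Pa at 5 mM glucose, had more RNA of both ROCK kinases, of the capping protein subunits CAPZA1 and CAPZA2, of the Arp2/3 subunits ACTR2, ACTR3 and ARPC5, of myosin heavy chain MYH10, of calponin CNN3, of thymosin TMSB4X and of tropomyosins TPM3 and TPM4. They had less RNA of ACTG1, MYL6, TMSB10, zyxin (ZYX) and transgelin (TAGLN). In all, 12 of 47 members rose and 5 fell, beside 14.9% of all genes tested higher and 8.28% lower (23.2% called), and the median difference was -0.08 over the members and 0.02 over all genes. In FPKM as deposited, without the scaling factor, 12 rose and 1 fell (beside 21.2% of all genes called). The fall there was among the crosslinkers and calponin family, and MYL6 was not called. After the GC correction 7 rose (ACTR3, CAPZA1, MYH10, MYH9, ROCK1, ROCK2 and TPM4) and 1 fell (MYL6), beside 5.57% of all genes higher and 4.58% lower (10.2% called). In bulk samples, fewer cells of a type and less RNA per cell cannot be told apart.

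The count of members called at 60 kPa moved with single libraries. Without either 6 kPa library 34 were called, beside 38.9 and 39.0% of all genes. Without both of them 34 were called too, 16 higher and 18 lower, beside 21.7% of all genes higher and 17.2% lower (39.0% called). Without the deeper 60 kPa library 6 were called (8.45% of all genes), and without the shallower 60 kPa library 1 (5.53%). Without the deeper 400 Pa library 4 were called (7.88%), and without the shallower 400 Pa library 1 (2.57%). The kinase ROCK2 was the member called in all 10 fits with 1 library left out. Without both 6 kPa libraries and with the GC correction, 12 rose and 2 fell, beside 7.98% of all genes higher and 6.89% lower (14.9% called). By the adjusted p-values of the authors' deposited table, 36 of 47 members passed, 16 higher and 20 lower on 60 kPa, beside 24.2% of all its genes.

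The size of the difference followed the GC content of the counted transcript. Across the 47 members the Spearman correlation of the difference at 60 kPa with GC content was -0.87, and across all 12653 tested genes with a GC value it was -0.72. These are descriptions across genes, which share their libraries and are not replicates. Of the 21 members under 50% GC, 12 rose and none fell in the fit without correction, with a median difference of 0.37. Of the 26 members at 50% GC or more, none rose and 5 fell, with a median of -0.21. After the correction the correlation over the members was -0.34.

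**Figure D2:**
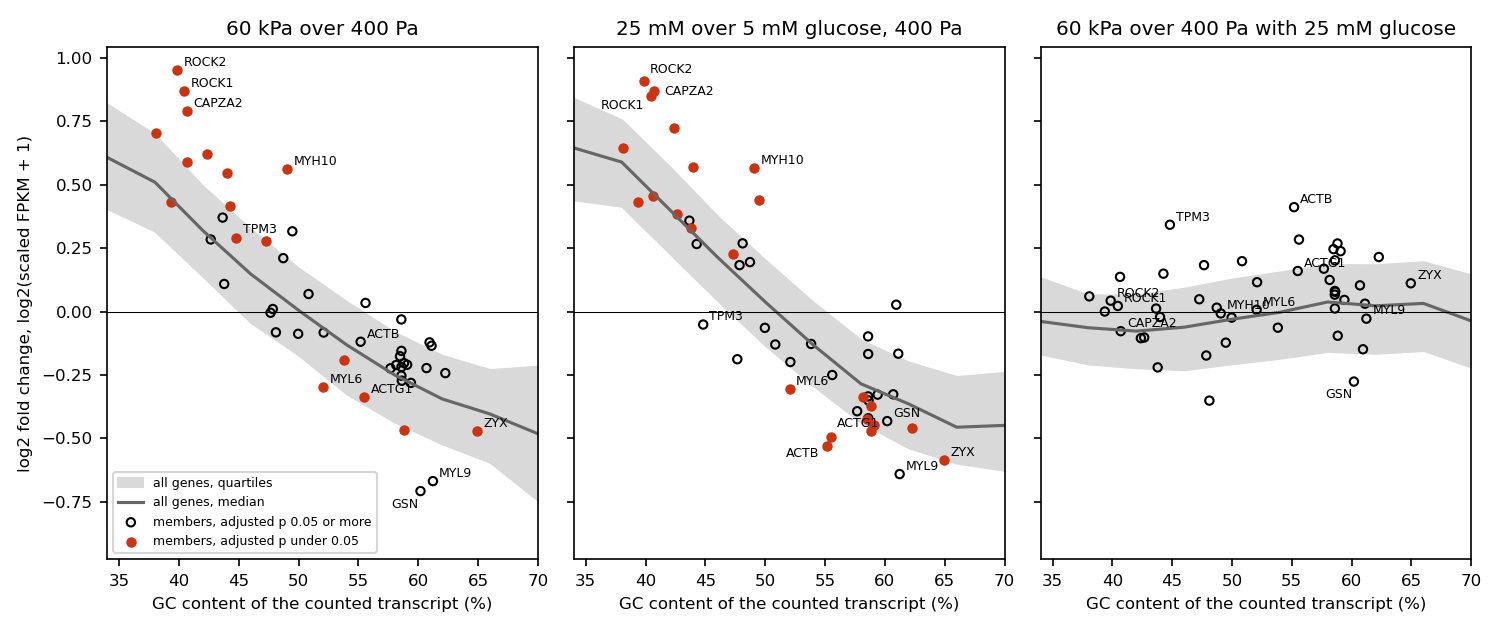
Difference in log2(scaled FPKM + 1) against GC content of the counted transcript (%) for 60 kPa over 400 Pa, 25 mM over 5 mM glucose and 60 kPa over 25 mM glucose. Circles are the 47 members (filled where called), and the line and band are the median and quartiles of all genes. In the first and second panels the members fall along the band, ROCK2 and MYH10 above it and MYL6 below it, and in the third panel the band is nearly flat with ACTB and TPM3 above it.

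At 25 mM glucose on the same soft gel, set against 5 mM, the genes of both ROCK kinases, both alpha chains of capping protein and 4 of 8 Arp2/3 subunits were higher, and both actins, profilin and cofilin were lower, in the fit without GC correction. The increases were in ROCK1, ROCK2, CAPZA1, CAPZA2, ACTR2, ACTR3, ARPC3, ARPC5, MYH10, MYL12A, MYL12B, CNN3 and TPM4, and the decreases in ACTB, ACTG1, CFL1, PFN1, MYL6, FLNA, TAGLN, TAGLN2, PXN and ZYX. That is 13 members higher and 10 lower, beside 19.4% of all genes higher and 8.32% lower (27.7% called). The median was -0.13 over the members and 0.07 over all genes. Both comparisons use the same 2 libraries on 400 Pa at 5 mM, so a deviation of those libraries enters both. Values are set side by side below, and a gene called in both comparisons is not a repeated finding. After the GC correction 1 member rose (MYH10) and 5 fell (ACTB, ACTG1, MYL6, RHOA and TPM3), beside 2.83% of all genes higher and 2.7% lower (5.53% called).

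This count also moved with single libraries. Without both 6 kPa libraries 37 members were called (16 higher, 21 lower), beside 26.4% of all genes higher and 17.4% lower (43.7% called). With the GC correction added 12 were (6 higher, 6 lower), beside 4.76% and 4.89% (9.65% called). Leaving out the deeper or the shallower 6 kPa library gave 37 and 38, beside 43.7 and 43.8% of all genes. Leaving out the deeper 25 mM library gave 8 (11.1% of all genes) and the shallower 25 mM library 3 (5.97%). Leaving out the deeper 400 Pa library gave 9 (8.76%) and the shallower 400 Pa library 0, with 1 gene called of all tested. The correlation of the glucose difference with GC content was -0.83 over the members and -0.78 over all genes, and -0.37 over the members after correction.

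Set directly against 25 mM glucose on 400 Pa, cells on 60 kPa gels had more RNA of both actins and of several actin partners. This was seen in the fits without the scattered 6 kPa libraries. The difference is taken between these 2 groups, but its spread, scaling and GC correction draw on all libraries of the fit. Without the 6 kPa libraries and without GC correction 11 members were higher on 60 kPa and none lower, beside 3.76% of all genes higher and 5.87% lower (9.63% called). They were ACTB, ACTG1, ACTN1, CFL1, CNN2, DIAPH1, FLNA, PFN1, RHOA, TAGLN2 and TPM3. The same 11 were higher with the GC correction added, beside 6.03% of all genes higher and 5.03% lower (11.1% called). With all 10 libraries none was called by limma, beside 0.733% of all genes higher and 2.1% lower (2.83% called). Of the members, 9 had an unadjusted p under 0.05, 7 of them higher on 60 kPa. The lowest adjusted p-values were 0.072 for TPM3 and 0.080 for ACTB. Fitted to only the 4 libraries of these 2 groups, 1 member was called, and the share of all genes in that fit was not counted. With GC correction of all 10 libraries 9 were higher and none lower, beside 3.69% and 3.25% of all genes (6.94% called). Leaving out either 6 kPa library gave 11 members, beside 9.66 and 9.55% of all genes, and leaving out any other library gave none, beside 0.422 to 1.52%. The choice to leave out the 6 kPa libraries was made after seeing the data. Over the members the correlation of this difference with GC content was 0.22.

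**Figure D3:**
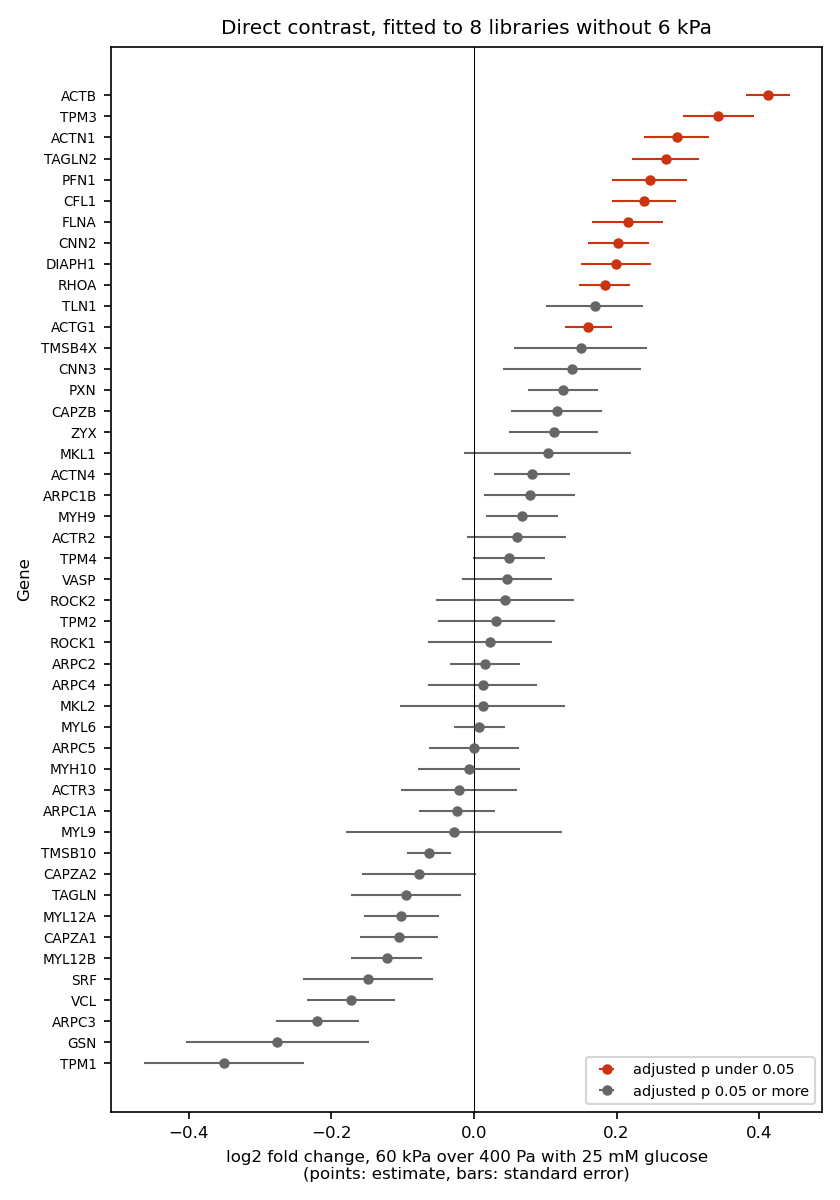
Difference in log2(scaled FPKM + 1) of 60 kPa over 25 mM glucose on 400 Pa for the 47 members, fitted to 8 libraries without 6 kPa (points are estimates, bars are 1 standard error). The 11 called members all lie right of 0, with ACTB at 0.41 and TPM3 at 0.34, and none of the members left of 0 was called.

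The actins are the 2 cytoplasmic forms, beta (ACTB, hg19 chr7:5566777-5570340) and gamma (ACTG1, chr17:79476997-79479825). ACTB stood at 1859 and 1834 scaled FPKM with 25 mM glucose, 2635 and 2701 on 400 Pa, 2411 and 2545 on 1 kPa, 3050.3 and 2352 on 6 kPa and 2460.5 and 2454 on 60 kPa. It was lowest in both 25 mM libraries, which did not overlap with any other group, and the 6 kPa libraries spanned the values of the other groups at 5 mM. Against 400 Pa at 5 mM the difference was -0.12 ± 0.10 (adjusted p = 0.42) on 60 kPa and -0.53 ± 0.10 (adjusted p = 0.0087) with 25 mM glucose. With GC correction it was -0.35 ± 0.06 (adjusted p = 0.019) with 25 mM glucose. On 60 kPa the sign of the ACTB difference turned with GC correction, to 0.08 ± 0.06 (adjusted p = 0.44) with all libraries. With the correction and without the 6 kPa libraries it was 0.08 ± 0.02 (adjusted p = 0.050), just under the threshold before rounding. Without those libraries and without the correction, both actins were called lower on 60 kPa. The call of ACTB there thus changed direction with the correction. Set directly, 60 kPa over 25 mM glucose, the ACTB difference was 0.41 ± 0.03 (adjusted p = 0.00044) without the 6 kPa libraries. It was 0.43 ± 0.06 (adjusted p = 0.0043) with all libraries after the GC correction. ACTG1 averaged 1463 ± 11 scaled FPKM on 60 kPa, 1309 ± 16 with 25 mM glucose and 1847 ± 73 on 400 Pa (SD, n = 2 each). Its difference was -0.34 ± 0.10 (adjusted p = 0.041) on 60 kPa and -0.50 ± 0.10 (adjusted p = 0.0098) with 25 mM glucose. The GC-corrected values were -0.13 ± 0.06 (adjusted p = 0.21) and -0.31 ± 0.06 (adjusted p = 0.024). The ratio of ACTB to ACTG1, whose transcripts have nearly the same GC content (55.2 and 55.5%), was 1.41 and 1.41 with 25 mM glucose, 1.47 and 1.42 on 400 Pa, 1.42 and 1.53 on 1 kPa, 1.58 and 1.56 on 6 kPa and 1.67 and 1.69 on 60 kPa. Both libraries on 60 kPa lay above all others, and the 2 discordant 6 kPa libraries gave nearly the same ratio. The proteins of these genes are near-identical and the genes have processed pseudogenes, so some reads may be split between them. The counted transcript of ACTG1 is a noncoding record.

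**Figure D4:**
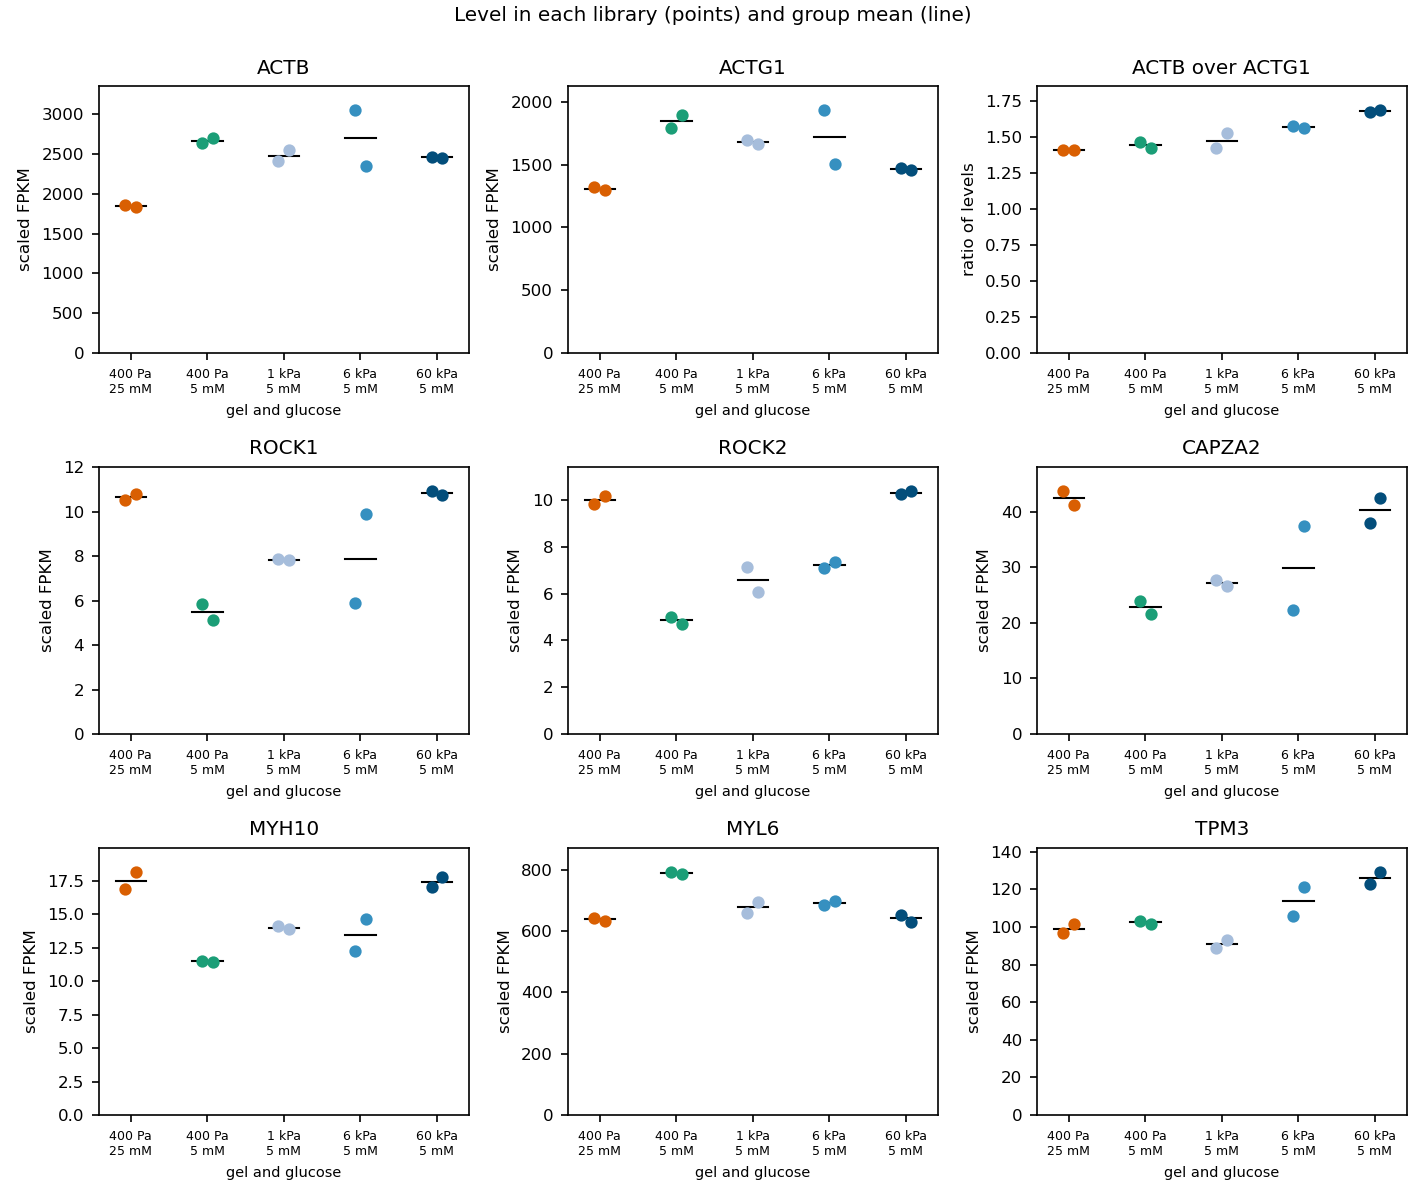
Scaled FPKM in each of 10 libraries (points) with the group mean (line) for 8 members, and the ratio of ACTB to ACTG1. ACTB is lowest with 25 mM glucose at 1859 and 1834, ROCK2 stands near 10 on 60 kPa and with 25 mM glucose and near 5 on 400 Pa, and the ratio is highest on 60 kPa at 1.67 and 1.69.

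The Arp2/3 complex has 8 members here, the actin-related proteins ACTR2 and ACTR3 and 6 further subunits. With all 10 libraries 3 of the 8 rose at 60 kPa, beside 14.9% of all genes, and 4 with 25 mM glucose, beside 19.4%. After the GC correction 1 rose at 60 kPa, beside 5.57% of all genes, and none with 25 mM glucose, beside 2.83%. None fell in these fits. ARPC2, the most abundant, stood at 214 and 226 scaled FPKM with 25 mM glucose, 198 and 186 on 400 Pa, 179 and 186 on 1 kPa, 189 and 209 on 6 kPa and 226 and 218 on 60 kPa. Its 4 highest values were in the 60 kPa and 25 mM libraries. Its differences of 0.21 ± 0.07 (adjusted p = 0.068) on 60 kPa and 0.20 ± 0.07 (adjusted p = 0.076) with 25 mM glucose did not pass with all 10 libraries. Without the 6 kPa libraries ARPC2 was called higher in both comparisons, and in neither with GC correction added. ACTR2 (hg19 chr2:65454829-65498390) stood at 74.7 and 80.3 scaled FPKM with 25 mM glucose, 51.8 and 46.7 on 400 Pa, 50.7 and 47.1 on 1 kPa, 49.9 and 67.1 on 6 kPa and 79.7 and 81.9 on 60 kPa. It was higher in every 60 kPa and 25 mM library than in any other, with differences of 0.70 ± 0.13 (adjusted p = 0.0085) and 0.64 ± 0.13 (adjusted p = 0.011). Its transcript has 38.1% GC, the lowest of the members, and after the correction the values were 0.21 ± 0.07 (adjusted p = 0.076) and 0.08 ± 0.07 (adjusted p = 0.55). ACTR3 averaged 46.4 ± 0.32 scaled FPKM on 60 kPa, 47.2 ± 3.6 with 25 mM glucose and 31.5 ± 2.5 on 400 Pa (SD, n = 2 each). It rose by 0.55 ± 0.11 (adjusted p = 0.013) on 60 kPa and kept a call after the GC correction at 0.34 ± 0.08 (adjusted p = 0.035). ARPC5 rose in both comparisons, by 0.43 ± 0.08 (adjusted p = 0.0091) and 0.43 ± 0.08 (adjusted p = 0.0087), but stood at -0.01 ± 0.06 (adjusted p = 0.96) and -0.09 ± 0.06 (adjusted p = 0.41) after the correction. ARPC3 rose with 25 mM glucose in the fit without correction, by 0.33 ± 0.09 (adjusted p = 0.029) against 0.03 ± 0.07 (adjusted p = 0.87) with it. The remaining subunits ARPC1A, ARPC1B and ARPC4 were not called with all 10 libraries, with differences between -0.27 (ARPC1B) and -0.09 (ARPC1A) at 60 kPa. Without the 6 kPa libraries ARPC1B fell on 60 kPa by 0.27 ± 0.06 (adjusted p = 0.012) and with 25 mM glucose by 0.35 ± 0.06 (adjusted p = 0.0036), and with GC correction added it was called in neither. Reads of ARPC4 may include those of the read-through gene ARPC4-TTLL3, and those of ARPC1B and ARPC4 those of the overlapping genes PDAP1 and TADA3 on the other strand, since the counting command sets no strand option.

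Among the monomer-binding proteins, TMSB10, a thymosin that sequesters actin monomers, stood at 2737 and 2816 scaled FPKM with 25 mM glucose, 3044 and 3023 on 400 Pa, 2757 and 2877 on 1 kPa, 2825 and 2785 on 6 kPa and 2712 and 2604 on 60 kPa. Both 400 Pa libraries at 5 mM were the highest of the 10. The difference was -0.19 ± 0.04 (adjusted p = 0.018) on 60 kPa and -0.13 ± 0.04 (adjusted p = 0.060) with 25 mM glucose, and on 60 kPa with GC correction -0.03 ± 0.04 (adjusted p = 0.67). Its paralogue TMSB4X averaged 65.0 ± 8.7 scaled FPKM on 60 kPa and 48.2 ± 2.2 on 400 Pa (SD, n = 2 each). It rose by 0.42 ± 0.12 (adjusted p = 0.039) on 60 kPa, and stood at 0.22 ± 0.13 (adjusted p = 0.34) with the correction. Profilin PFN1, which loads monomers onto growing ends, and cofilin CFL1, which severs and depolymerises filaments, fell with 25 mM glucose. PFN1 averaged 404 ± 8.3 scaled FPKM with 25 mM glucose and 542 ± 3.2 at 5 mM, a difference of -0.42 ± 0.09 (adjusted p = 0.015), and after the correction -0.14 ± 0.05 (adjusted p = 0.12). CFL1 averaged 388 ± 16 and 529 ± 11 in the same order, a difference of -0.45 ± 0.08 (adjusted p = 0.0068), and after the correction -0.15 ± 0.05 (adjusted p = 0.14). On 60 kPa both were higher than with 25 mM glucose after the GC correction, PFN1 by 0.25 ± 0.05 (adjusted p = 0.016) and CFL1 by 0.24 ± 0.05 (adjusted p = 0.031). Against 400 Pa at 5 mM both were called lower on 60 kPa without the 6 kPa libraries, and neither was with GC correction added.

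Capping protein is a dimer of an alpha chain (CAPZA1 or CAPZA2) and the beta chain CAPZB. With all 10 libraries and no GC correction, both alpha chain genes rose in both comparisons and the beta chain gene was called in neither. CAPZA1 (hg19 chr1:113162075-113214241) stood at 81.7 and 79.3 scaled FPKM with 25 mM glucose, 50.3 and 46.4 on 400 Pa, 54.0 and 53.1 on 1 kPa, 49.95 and 69.6 on 6 kPa and 75.1 and 74.5 on 60 kPa. CAPZA2 (chr7:116502563-116559313) stood at 43.7 and 41.2 scaled FPKM with 25 mM glucose, 24.0 and 21.6 on 400 Pa, 27.8 and 26.6 on 1 kPa, 22.2 and 37.5 on 6 kPa and 38.0 and 42.4 on 60 kPa. For both genes the libraries of 60 kPa and 25 mM glucose lay above every 400 Pa and 1 kPa library, and of the 6 kPa libraries the deeper lay near 400 Pa and the shallower just under the 60 kPa values. CAPZB stood at 84.8 and 76.1 scaled FPKM with 25 mM glucose, 90.6 and 94.2 on 400 Pa, 87.3 and 90.5 on 1 kPa, 95.4 and 84.6 on 6 kPa and 89.6 and 84.8 on 60 kPa, lowest in the shallower 25 mM library. The differences of CAPZA1 were 0.62 ± 0.13 (adjusted p = 0.014) on 60 kPa and 0.73 ± 0.13 (adjusted p = 0.0081) with 25 mM glucose, and those of CAPZA2 0.79 ± 0.20 (adjusted p = 0.024) and 0.87 ± 0.20 (adjusted p = 0.016). After the GC correction CAPZA1 was at 0.33 ± 0.08 (adjusted p = 0.041) and 0.34 ± 0.08 (adjusted p = 0.051), and CAPZA2 at 0.41 ± 0.14 (adjusted p = 0.097) and 0.40 ± 0.14 (adjusted p = 0.13). With the 6 kPa libraries left out as well, all 4 of these values passed, with CAPZA2 at 0.41 ± 0.07 (adjusted p = 0.0083) and 0.40 ± 0.07 (adjusted p = 0.017). CAPZB differed by -0.08 ± 0.09 (adjusted p = 0.52) on 60 kPa. With 25 mM glucose CAPZB fell without the 6 kPa libraries, by 0.20 ± 0.06 (adjusted p = 0.036), and stood at -0.15 ± 0.06 (adjusted p = 0.15) with GC correction added. Gelsolin (GSN), which severs and caps filaments, averaged 8.86 ± 1.4 scaled FPKM on 60 kPa and 15.0 ± 0.22 on 400 Pa (SD, n = 2 each), with a difference of -0.71 ± 0.22 (adjusted p = 0.052). This did not pass, while its slope over the 4 stiffnesses at 5 mM did. Without the 6 kPa libraries GSN was called lower in both comparisons, and in neither with GC correction added.

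The tropomyosins TPM1 to TPM4 coat actin filaments. TPM3 and TPM4 rose on 60 kPa, and of these only TPM4 was also called with GC correction. TPM2, the most abundant, stood at 153 and 156 scaled FPKM with 25 mM glucose, 177 and 169 on 400 Pa, 155 and 184 on 1 kPa, 174 and 174 on 6 kPa and 166 and 149.9 on 60 kPa. It was lowest in the shallower 60 kPa library and highest in the shallower 1 kPa library, with differences of -0.13 ± 0.09 (adjusted p = 0.31) and -0.17 ± 0.09 (adjusted p = 0.19). TPM3 averaged 126 ± 4.6 scaled FPKM on 60 kPa, 99.0 ± 3.3 with 25 mM glucose and 103 ± 1.1 on 400 Pa (SD, n = 2 each). It rose by 0.29 ± 0.08 (adjusted p = 0.035) on 60 kPa and stood at -0.05 ± 0.08 (adjusted p = 0.67) with 25 mM glucose. With GC correction it was not called on 60 kPa and was called lower with 25 mM glucose. Set directly against 25 mM glucose it was higher on 60 kPa by 0.42 ± 0.05 (adjusted p = 0.0023) with GC correction. The counted transcript of TPM3 is a noncoding record of the locus, and the table counts 1 transcript per gene, so a change of isoform cannot be told apart from a change of level. TPM4, whose promoter holds a CArG box, rose by 0.28 ± 0.07 (adjusted p = 0.023) on 60 kPa and 0.23 ± 0.07 (adjusted p = 0.039) with 25 mM glucose. On 60 kPa with the correction it rose by 0.20 ± 0.05 (adjusted p = 0.048). TPM1 averaged 27.5 ± 2.4 scaled FPKM on 60 kPa, 35.4 ± 5.0 with 25 mM glucose and 29.1 ± 2.5 on 400 Pa, and was called in none of these fits.

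Of the non-muscle myosin II genes, the heavy chain MYH10 (myosin IIB, hg19 chr17:8377523-8534079) rose and the essential light chain MYL6 fell in both comparisons. MYH10 averaged 17.4 ± 0.55 scaled FPKM on 60 kPa, 17.5 ± 0.89 with 25 mM glucose and 11.5 ± 0.023 on 400 Pa (SD, n = 2 each). Its differences were 0.56 ± 0.10 (adjusted p = 0.0088) and 0.57 ± 0.10 (adjusted p = 0.0080), and after the GC correction 0.54 ± 0.09 (adjusted p = 0.0078) and 0.48 ± 0.09 (adjusted p = 0.025). MYL6 (chr12:56552045-56555366) stood at 644 and 633 scaled FPKM with 25 mM glucose, 792 and 786 on 400 Pa, 660.1 and 695 on 1 kPa, 685 and 698 on 6 kPa and 654 and 630.4 on 60 kPa. Both 400 Pa libraries at 5 mM lay above all 8 others. The differences of MYL6 were -0.30 ± 0.05 (adjusted p = 0.0063) on 60 kPa and -0.31 ± 0.05 (adjusted p = 0.0059) with 25 mM glucose, and -0.21 ± 0.04 (adjusted p = 0.022) and -0.26 ± 0.04 (adjusted p = 0.019) after the correction. The more abundant heavy chain MYH9 (myosin IIA) averaged 137 ± 1.7 scaled FPKM on 60 kPa and 140.3 ± 0.46 on 400 Pa. Its difference was -0.03 ± 0.10 (adjusted p = 0.84), and 0.26 ± 0.05 (adjusted p = 0.018) with GC correction. The ratio of MYH10 to MYH9 averaged 0.127 on 60 kPa and 0.134 with 25 mM glucose, against 0.0819 on 400 Pa, for transcripts of 49.1 and 58.6% GC. The regulatory light chains MYL12A and MYL12B rose with 25 mM glucose, by 0.39 ± 0.10 (adjusted p = 0.022) and 0.44 ± 0.11 (adjusted p = 0.020). They stood at 0.02 ± 0.05 (adjusted p = 0.88) and 0.37 ± 0.10 (adjusted p = 0.072) after the correction. They code for near-identical proteins, and MYL12A overlaps LOC104968399, so some of their reads are uncertain. Without the 6 kPa libraries both were called higher in both comparisons, and with GC correction added only MYL12B was. MYL9, the regulatory light chain of smooth muscle and stress fibres, averaged 14.1 ± 0.37 scaled FPKM on 60 kPa, 14.6 ± 3.8 with 25 mM glucose and 23.0 ± 0.32 on 400 Pa. Its differences of -0.67 ± 0.25 (adjusted p = 0.090) and -0.64 ± 0.25 (adjusted p = 0.091) did not pass. Without the 6 kPa libraries MYL9 was called lower in both comparisons, and in neither with GC correction added.

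The crosslinkers and the calponin family moved in both directions. TAGLN2, the most abundant of them, stood at 287 and 267 scaled FPKM with 25 mM glucose, 377 and 392 on 400 Pa, 375 and 379.8 on 1 kPa, 456 and 339.5 on 6 kPa and 341 and 327 on 60 kPa. It was lowest in both 25 mM libraries and highest in the deeper 6 kPa library. The differences of TAGLN2 were -0.20 ± 0.12 (adjusted p = 0.25) on 60 kPa and -0.47 ± 0.12 (adjusted p = 0.022) with 25 mM glucose. With GC correction the glucose difference was -0.18 ± 0.05 (adjusted p = 0.071). TAGLN, a marker of smooth muscle and an SRF target, averaged 13.0 ± 0.48 scaled FPKM on 60 kPa, 14.0 ± 0.86 with 25 mM glucose and 18.4 ± 0.77 on 400 Pa (SD, n = 2 each). Its differences of -0.47 ± 0.12 (adjusted p = 0.023) and -0.37 ± 0.12 (adjusted p = 0.045) both passed, and it stood at -0.17 ± 0.07 (adjusted p = 0.18) and -0.08 ± 0.07 (adjusted p = 0.58) after the correction. TAGLN overlaps PCSK7 on the other strand. CNN3, acidic calponin (hg19 chr1:95362505-95391364), stood at 20.8 and 23.1 scaled FPKM with 25 mM glucose, 15.7 and 15.9 on 400 Pa, 17.1 and 14.3 on 1 kPa, 13.9 and 17.3 on 6 kPa and 23.5 and 25.0 on 60 kPa. Both 60 kPa libraries were the highest. Its differences of 0.59 ± 0.13 (adjusted p = 0.015) on 60 kPa and 0.45 ± 0.13 (adjusted p = 0.033) with 25 mM glucose became 0.21 ± 0.09 (adjusted p = 0.20) and -0.02 ± 0.09 (adjusted p = 0.92) after the correction. Filamin FLNA and calponin CNN2, both with a CArG box in the promoter, differed with 25 mM glucose by -0.46 ± 0.13 (adjusted p = 0.035) and -0.42 ± 0.15 (adjusted p = 0.063). On 60 kPa they differed by -0.24 ± 0.13 (adjusted p = 0.21) and -0.22 ± 0.15 (adjusted p = 0.31). FLNA was higher on 60 kPa than with 25 mM glucose by 0.22 ± 0.04 (adjusted p = 0.020) after the correction. Alpha-actinins ACTN1 and ACTN4 were called in neither comparison with all 10 libraries. Without the 6 kPa libraries all of these 7 genes but ACTN1 were called on 60 kPa, 5 lower and 1 higher (17.2% and 21.7% of all genes). With 25 mM glucose all 7 were called there, 6 lower and 1 higher (17.4% and 26.4%). With GC correction added none was lower and 1 higher on 60 kPa (6.89% and 7.98%). With 25 mM glucose 1 was lower and none higher (4.89% and 4.76%). ACTN1, also with a CArG box, averaged 135 ± 2.0 scaled FPKM on 60 kPa, 111 ± 3.7 with 25 mM glucose and 132 ± 1.9 on 400 Pa. It was higher on 60 kPa than with 25 mM glucose by 0.30 ± 0.08 (adjusted p = 0.049) with the correction.

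Zyxin (ZYX) is an adaptor recruited to focal adhesions and stress fibres under tension. Its gene stood at 60.5 and 58.3 scaled FPKM with 25 mM glucose, 86.5 and 92.6 on 400 Pa, 95.2 and 105 on 1 kPa, 106 and 74.6 on 6 kPa and 64.1 and 64.3 on 60 kPa. The 4 libraries of 60 kPa and 25 mM glucose lay below all others. Its differences were -0.47 ± 0.14 (adjusted p = 0.045) and -0.58 ± 0.14 (adjusted p = 0.020), and with GC correction -0.07 ± 0.05 (adjusted p = 0.50) and -0.19 ± 0.05 (adjusted p = 0.085). Its transcript has 64.9% GC, the highest of the members. Paxillin (PXN) fell with 25 mM glucose, to 61.8 ± 1.1 scaled FPKM against 78.2 ± 1.1 at 5 mM (SD, n = 2 each). The difference was -0.34 ± 0.08 (adjusted p = 0.020), and -0.06 ± 0.05 (adjusted p = 0.57) with the correction, and the gene overlaps PXN-AS1. Vinculin (VCL), talin (TLN1) and the filament elongation factor VASP were called in neither comparison with all 10 libraries. VCL averaged 41.0 ± 1.5 scaled FPKM on 60 kPa, 46.3 ± 2.0 with 25 mM glucose and 40.7 ± 0.078 on 400 Pa. TLN1 and VASP differed by -0.22 ± 0.13 (adjusted p = 0.26) and -0.28 ± 0.13 (adjusted p = 0.16) on 60 kPa, and by 0.04 ± 0.08 (adjusted p = 0.77) and 0.02 ± 0.07 (adjusted p = 0.86) after the correction. Without the 6 kPa libraries TLN1 and VASP fell in both comparisons, with 25 mM glucose by 0.40 ± 0.07 (adjusted p = 0.0029) and 0.33 ± 0.06 (adjusted p = 0.0047), and VCL rose with 25 mM glucose by 0.18 ± 0.06 (adjusted p = 0.046). In that fit PXN was also called lower on 60 kPa. None of these was called with GC correction added.

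The transcription factor SRF and its coactivators MKL1 and MKL2 were called in no comparison with all 10 libraries, with or without the GC correction. SRF (hg19 chr6:43140128-43149244) stood at 11.8 and 13.4 scaled FPKM with 25 mM glucose, 12.4 and 12.2 on 400 Pa, 13.8 and 13.2 on 1 kPa, 13.6 and 11.3 on 6 kPa and 10.6 and 11.9 on 60 kPa. The lowest value was in the deeper 60 kPa library and the highest in the deeper 1 kPa library. The differences were -0.12 ± 0.12 (adjusted p = 0.49) on 60 kPa and 0.03 ± 0.12 (adjusted p = 0.88) with 25 mM glucose. MKL1 (chr22:40806285-40859444) stood at 5.87 and 7.60 scaled FPKM with 25 mM glucose, 8.67 and 8.60 on 400 Pa, 10.2 and 11.1 on 1 kPa, 12.6 and 5.95 on 6 kPa and 7.44 and 7.08 on 60 kPa. The 6 kPa libraries differed by more than 2-fold for MKL1, which overlaps SGSM3 on the other strand, and its differences were -0.22 ± 0.27 (adjusted p = 0.58) and -0.33 ± 0.27 (adjusted p = 0.38). MKL2 (chr16:14165170-14360636) stood at 6.23 and 6.07 scaled FPKM with 25 mM glucose, 4.90 and 4.27 on 400 Pa, 5.46 and 5.65 on 1 kPa, 4.62 and 5.99 on 6 kPa and 5.63 and 6.84 on 60 kPa. The 3 lowest values were in both 400 Pa libraries at 5 mM and the deeper 6 kPa library, with differences of 0.37 ± 0.14 (adjusted p = 0.098) and 0.36 ± 0.14 (adjusted p = 0.097). Without the 6 kPa libraries MKL2 passed at 0.37 ± 0.12 (adjusted p = 0.037) and 0.36 ± 0.12 (adjusted p = 0.038). With the GC correction added it stood at 0.15 ± 0.11 (adjusted p = 0.40) and 0.05 ± 0.11 (adjusted p = 0.81).

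The kinases ROCK1 and ROCK2 gave the largest rises of the members on 60 kPa in the fit without GC correction. After it MYH10 had the largest estimate, followed by ROCK2 and ROCK1. ROCK2 (hg19 chr2:11319885-11485533) stood at 9.81 and 10.2 scaled FPKM with 25 mM glucose, 5.00 and 4.71 on 400 Pa, 7.14 and 6.07 on 1 kPa, 7.10 and 7.36 on 6 kPa and 10.3 and 10.4 on 60 kPa. Its 60 kPa and 25 mM libraries lay near 10 and its 400 Pa libraries at 5 mM near 5 scaled FPKM, with 1 and 6 kPa between them and no overlap. ROCK1 (chr18:18529703-18691812) stood at 10.5 and 10.8 scaled FPKM with 25 mM glucose, 5.85 and 5.12 on 400 Pa, 7.86 and 7.85 on 1 kPa, 5.91 and 9.88 on 6 kPa and 10.9 and 10.8 on 60 kPa. The order was the same except that the 6 kPa libraries ran from near the 400 Pa level to near that of 60 kPa. The differences of ROCK2 were 0.95 ± 0.11 (adjusted p = 0.0018) on 60 kPa and 0.91 ± 0.11 (adjusted p = 0.0042) with 25 mM glucose, and those of ROCK1 0.87 ± 0.19 (adjusted p = 0.014) and 0.85 ± 0.19 (adjusted p = 0.014). After the GC correction ROCK2 was at 0.53 ± 0.10 (adjusted p = 0.016) and 0.40 ± 0.10 (adjusted p = 0.065), and ROCK1 at 0.48 ± 0.13 (adjusted p = 0.049) and 0.36 ± 0.13 (adjusted p = 0.14). RHOA, the GTPase that activates both kinases (chr3:49396569-49449530), stood at 254 and 254 scaled FPKM with 25 mM glucose, 296 and 284 on 400 Pa, 241 and 238 on 1 kPa, 238 and 264 on 6 kPa and 288 and 289.7 on 60 kPa. The 60 kPa values lay within those of 400 Pa, with a difference of -0.00 ± 0.06 (adjusted p = 0.97), and the other groups lay below both. With 25 mM glucose its difference was -0.19 ± 0.06 (adjusted p = 0.062), and -0.33 ± 0.05 (adjusted p = 0.011) with GC correction. In that fit 60 kPa was higher than 25 mM glucose by 0.26 ± 0.05 (adjusted p = 0.014). The formin DIAPH1 averaged 103 ± 0.98 scaled FPKM on 60 kPa, 89.4 ± 2.6 with 25 mM glucose and 97.8 ± 2.3 on 400 Pa. It was higher on 60 kPa than with 25 mM glucose by 0.25 ± 0.05 (adjusted p = 0.028) with the correction.

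**Figure D5:**
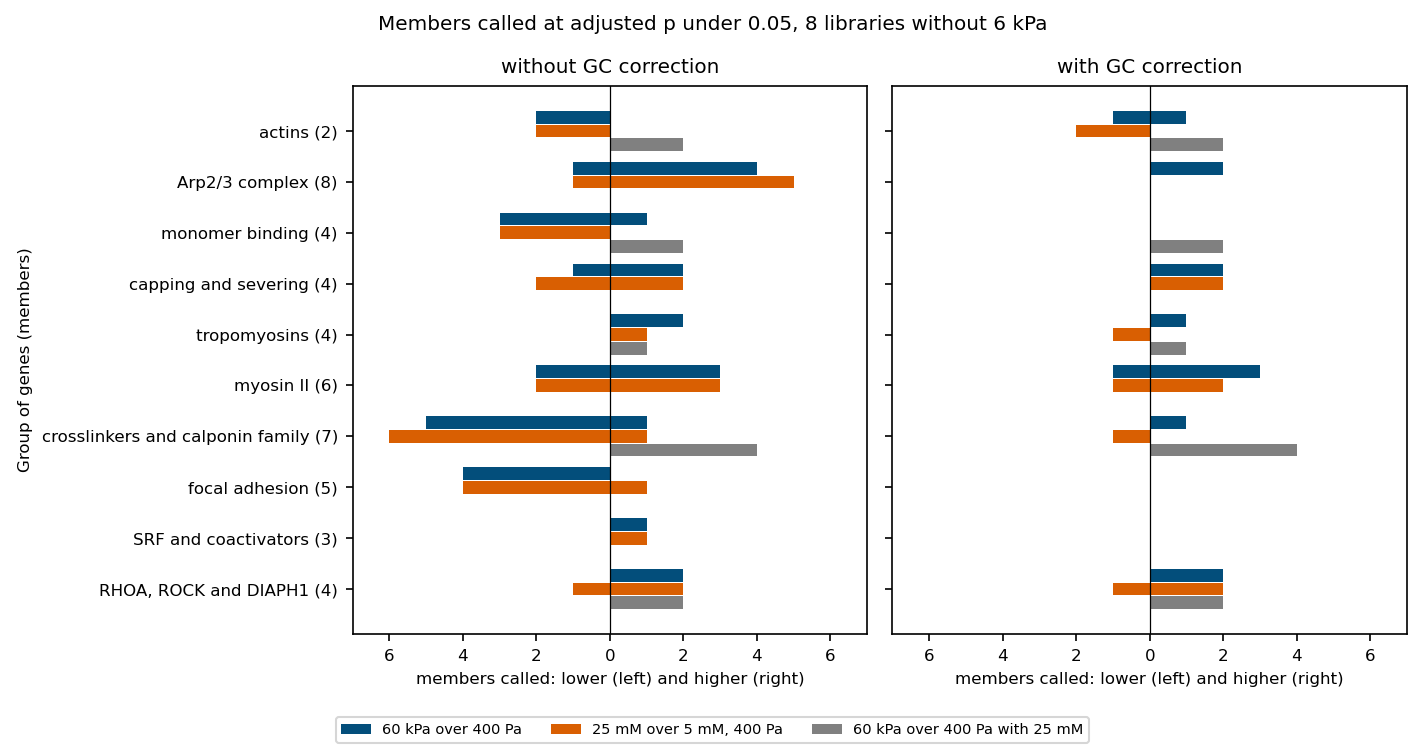
Members called lower (left) and higher (right) at an adjusted p under 0.05 in each role, in fits to 8 libraries without 6 kPa, without (left panel) and with (right panel) GC correction. With correction the focal adhesion genes and SRF with its coactivators have no call, both ROCK genes are called higher on 60 kPa and with 25 mM glucose, and all 11 calls of 60 kPa over 25 mM glucose are higher.

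The fits to scaled FPKM and with GC correction, each of these without the 6 kPa libraries, and the deposited log2 values make 5 fits. In all 5, 7 members were called at 60 kPa in 1 direction, ACTR3, CAPZA1, MYH10, ROCK1, ROCK2 and TPM4 higher and MYL6 lower. With 25 mM glucose 4 were, MYH10 higher and ACTB, ACTG1 and MYL6 lower. The shares of all genes called in all 5 fits were not counted, so these counts have no share to be read beside. All 5 fits share the libraries of the groups compared. FPKM as deposited is not among them, and there MYL6 was not called on 60 kPa. In the deposited log2 values alone, 37 members were called at 60 kPa (16 higher, 21 lower) beside 51.8% of all genes, and 42 with 25 mM glucose (14 and 28) beside 55.4%.

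On 1 kPa no member passed against 400 Pa with limma, and no gene of all 12817 did (0.0%). At an unadjusted p under 0.05 there were 6 members, ROCK1, ROCK2 and MYH10 above 400 Pa and TMSB10, MYL6 and RHOA below it, named after their values were seen. RHOA alone passed on 1 kPa without both 6 kPa libraries, at -0.27 ± 0.04 (adjusted p = 0.035) beside 0.475% of all genes. RHOA and MYL6 passed with the GC correction added, at -0.31 ± 0.03 (adjusted p = 0.016) and -0.24 ± 0.03 (adjusted p = 0.037), beside 0.71%. On 6 kPa no member passed with limma, beside 0.585% of all genes, and 6 did at an unadjusted p under 0.05. The nearest was ROCK2 at 0.49 ± 0.11 (adjusted p = 0.090). Without the deeper 6 kPa library 18 members passed on 6 kPa, beside 18.4% of all genes, and without the shallower 3, beside 3.45%.

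Over the 4 stiffnesses at 5 mM, the slope per 10-fold of stiffness was positive in 14 members and negative in 3, beside 14.7% and 8.87% of all genes (23.6% called). ROCK2 had the steepest rise, by 0.40 ± 0.06 (adjusted p = 0.0029) per 10-fold, with ACTR2 at 0.34 ± 0.06, ROCK1 at 0.34 ± 0.09 and CAPZA2 at 0.34 ± 0.08. The declines were GSN at -0.37 ± 0.10 (adjusted p = 0.025), ZYX at -0.24 ± 0.08 and TAGLN at -0.24 ± 0.06. After the GC correction 5 members had a slope past the test, all positive (ACTR3, CAPZA1, MYH9, MYH10 and ROCK2), beside 4.92% of all genes positive and 3.7% negative (8.62% called). Without both 6 kPa libraries 31 did, 15 positive and 16 negative, beside 20.3% and 17.7% of all genes (38.0% called). With the GC correction added 8 did, all positive, beside 6.49% and 5.43% (11.9% called). They were ACTN1, ACTR3, CAPZA1, CAPZA2, MYH10, MYH9, MYL12B and ROCK2. The count was 4 without the deeper 60 kPa library (7.66% of all genes), 1 without the shallower 60 kPa library (5.16%) and 5 without the shallower 400 Pa library (10.8%). It was 29 without the deeper 6 kPa library (35.5%) and 12 to 16 without any other (16.3 to 23.5%). Any difference among the 5 groups was called for 23 members by the moderated F test, beside 27.6% of all genes, for 12 after the GC correction beside 11.3%, and for 39 without the 6 kPa libraries beside 51.4%. It was called for 38 members without either 6 kPa library, 12 and 8 without the deeper and shallower 1 kPa library, 4 and 3 without those of 60 kPa, 3 and 3 without those of 25 mM glucose, and 5 and 2 without those of 400 Pa at 5 mM. The shares of all genes in the same order were 51.4 and 53.1%, 14.6 and 12.7%, 10.7 and 9.28%, 9.26 and 7.18%, and 8.0 and 4.86%.

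Further genes of these pathways, from lists that the members do not share, were counted the same way, beside 14.9% of all genes higher and 8.28% lower on 60 kPa, and 5.57% and 4.58% after the GC correction. On 60 kPa, 7 of 13 genes of myosin light chain control and other myosins rose and 1 fell, and 7 of 21 nucleation promoting factors and formins rose and 2 fell. In actin turnover 2 of 14 rose and 2 fell, among other crosslinkers and linkers 8 of 21 rose and none fell, and among other focal adhesion genes 5 of 20 rose and 1 fell. After the GC correction the rises and falls, in the order of these 5 lists, were 4 and 0, 3 and 2, 1 and 0, 6 and 0, and 5 and 0. With 25 mM glucose and no correction they were 6 and 1, 7 and 2, 3 and 4, 9 and 2, and 5 and 2. The shares of all genes there were 19.4% higher and 8.32% lower. ANLN, for anillin, which links actin, myosin and RHOA at the cleavage furrow, averaged 79.6 ± 2.00 scaled FPKM on 60 kPa and 33.5 ± 2.51 on 400 Pa (SD, n = 2 each). It rose by 1.23 ± 0.12 (adjusted p = 0.0011), and by 0.81 ± 0.06 with the correction (adjusted p = 0.00019). PPP1R12A, the targeting subunit of myosin phosphatase and a ROCK substrate, rose by 0.74 ± 0.14 (adjusted p = 0.0090) and by 0.42 ± 0.09 after the correction (adjusted p = 0.026). The actin-binding proteins ENAH, at 0.61 ± 0.11 (0.63 ± 0.10 corrected), TWF1, at 1.09 ± 0.17 (0.54 ± 0.10 corrected), and DIAPH3, at 0.92 ± 0.12 (0.52 ± 0.14 corrected), passed in both fits. CORO1B, which promotes removal of branches, fell in both, at -0.96 ± 0.17 and -0.55 ± 0.08. Without the correction these genes were called with 25 mM glucose too. They stood at 0.91 for ANLN, 0.83 for PPP1R12A, 0.71 for ENAH, 0.95 for TWF1, 0.82 for DIAPH3 and -0.87 for CORO1B. With it TWF1 and DIAPH3 lost that call. Of the other genes picked from these 5 lists, RDX and LIMS1 passed on 60 kPa in both fits. PPP1CB, MYO1C, DAAM1, INF2, DSTN, CAPG, TWF2 and GIT1 passed there only without the correction.

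Other SRF targets, genes outside the members that SRF or its coactivators are known to drive, were counted in the same comparisons. Of 20 listed, 13 passed the filter on low values, and the 7 that did not have no test. On 60 kPa 1 rose and 5 fell against 400 Pa (14.9% of all genes higher, 8.28% lower), and 1 rose and 4 fell after the GC correction (5.57% and 4.58%). With 25 mM glucose 3 rose and 1 fell (19.4% and 8.32%), and 4 rose and none fell after the correction (2.83% and 2.7%). Directly, 5 were lower on 60 kPa than with 25 mM glucose and none higher (2.1% lower and 0.733% higher), and 6 lower and 1 higher after the correction (3.25% and 3.69%). CTGF, a secreted matricellular protein, averaged 8.99 ± 0.425 scaled FPKM on 60 kPa, 18.7 ± 0.531 with 25 mM glucose and 16.4 ± 0.281 on 400 Pa (SD, n = 2 each). The direct difference of CTGF, 60 kPa over 25 mM glucose, was -0.98 ± 0.10 (adjusted p = 0.0029), and -0.93 ± 0.09 with the correction (adjusted p = 0.00064). FOS, an immediate early transcription factor, averaged 3.37 ± 0.546 on 60 kPa, 8.79 ± 0.419 with 25 mM glucose and 6.74 ± 0.752 on 400 Pa, a direct difference of -1.17 ± 0.14 (adjusted p = 0.0047). The other 3 genes lower in the direct contrast, named after their values were seen, were JUNB at -0.94 ± 0.16, CYR61 at -0.52 ± 0.11 and TUFT1 at -0.68 ± 0.11. MCL1, an anti-apoptotic gene, rose in both comparisons with 400 Pa, by 0.64 and 0.62, and its direct difference was 0.02 ± 0.09 (adjusted p = 0.96). In FPKM as deposited, 1 of the 13 rose and 3 fell on 60 kPa (15.1% of all genes higher, 6.15% lower), and 4 were lower than with 25 mM glucose (1.32%).

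Markers of cell types were read beside these results. The 6 mammary epithelial markers, all expressed, summed to 1964 and 2008 scaled FPKM on 60 kPa, 1882 and 1884 with 25 mM glucose and 2858 and 2877 on 400 Pa, given as low and high. Most of this sum is KRT5 and KRT17. On 60 kPa 5 of 6 fell, beside 8.28% of all genes, and 2 after the GC correction, beside 4.58%. With 25 mM glucose 4 fell and 2 rose (CDH1 and TP63), beside 8.32% of all genes lower and 19.4% higher, and after the correction 3 fell and none rose, beside 2.7% and 2.83%. KRT17, a basal keratin, averaged 418 ± 20.5 on 60 kPa and 810.3 ± 13.6 on 400 Pa (SD, n = 2 each). The 5 smooth muscle markers summed to 25.0 to 25.6 on 60 kPa, 14.8 to 15.2 with 25 mM glucose and 22.8 to 23.8 on 400 Pa, with CNN1 at 0 in every library of these 3 groups. Nearly all of this sum is SMTN. The 6 fibroblast markers summed to 10.9 to 12.2 on 60 kPa, 17.3 to 18.9 with 25 mM glucose and 16.8 to 17.5 on 400 Pa, with COL1A2 and COL3A1 at 0. Nearly all of that sum is DCN. The 5 leukocyte markers summed to 10.1 to 14.0, 16.4 to 17.7 and 23.0 to 23.7 in the same groups, with CD3E and PTPRC at 0. Their sum is that of CD68, CD14 and CSF1R. On 60 kPa DCN, CD14 and CD68 were called lower than on 400 Pa, and DCN and CD14 also with GC correction. These sums rest on few genes and are not shares of cell types. The 4 endothelial markers reached at most 1.18, with VWF at 0. Of 12 cytosolic ribosomal protein genes, 8 fell on 60 kPa, beside 8.28% of all genes, and 6 after the GC correction, beside 4.58%. The part of epithelial marker level in the changes of the actin genes was not tested.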

How the data were processed

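Total RNA was taken with TRIzol and made into libraries with a KAPA kit for messenger RNA, per the labels' protocols. The submitters' processing notes name hg19, STAR, HOMER and DESeq2, without versions. The FPKM values of 10 libraries were made by the authors from exon tags of 1 transcript per gene, per the file headers, with no strand option in the command. The deposited log2 values and the authors' log2 fold changes cover 60 kPa or 25 mM glucose with 400 Pa, and each of these 2 tables was normalised within its own 4 libraries. Adjusted p-values are deposited beside them, also the authors' own, per the file headers. The deeper 1 kPa library was read from a directory whose name states no gel, per the file headers, and its group is taken from the column heading. Transcript length in bases is deposited in the FPKM table and was used with the library totals to recover reads.

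FPKM was multiplied by 1 factor per library, the median ratio to gene means over genes of at least 10 FPKM. Genes with a mean of at least 0.5 were tested on log2(value + 1) with limma 3.58.1 (R 4.3.3, trended eBayes), over 10 libraries in 5 groups (5 residual degrees of freedom, median prior 3.487), with Benjamini-Hochberg adjustment over 12817 genes. The design foresaw this for FPKM. All 47 members passed the filter. The slope used log10 of the stiffness in Pa over 8 libraries. The GC correction fitted a spline of 6 degrees of freedom to each library's deviations over transcript GC content (GENCODE, 98.72% of tested genes), with a value for every member. The fit was checked on simulated data. The members, gene lists and tests were chosen with earlier results of these data known. Values in every library are printed for the most abundant member of each role, the 6 largest called changes of both main comparisons, and SRF, MKL1, MKL2, RHOA, ROCK1 and ROCK2; genes outside the members are those with the 2 largest rises and falls of each list, of which the text gives a selection, unless said otherwise. Alternatives changed the scaling, pseudocount, filter, trend, libraries and input values. P-values measure only the spread between these pooled cultures. The results of 1 further gene list are not reported here.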

Additional observations from a re-analysis of the deposited data

How the results depend on the processing

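No paired analysis was possible because the table columns carry no replicate number. Members called are counted out of 47. Fits without the 6 kPa libraries were added after seeing the data. Shares of all genes are given above for most of these counts. None was counted for the fits with no filter, with no trend or in only 4 libraries, nor for the changes of sign. Those counts therefore cannot be set against all genes. For 60 kPa against 400 Pa (17) the count was 11 with no filter on low values, 10 with no trend in eBayes, 8 with the GC correction, 33 in only the 4 libraries compared, 37 in the deposited log2 values, 34 without 6 kPa, and 1 to 34 leaving out 1 library. For 25 mM glucose (23) it was 6 with the GC correction, 38 in only 4 libraries, 42 in the deposited log2 values, 37 without 6 kPa, 12 without 6 kPa and with the GC correction, and 0 to 38 leaving out 1 library. For 60 kPa against 25 mM glucose (0) it was 9 with the GC correction, 1 in only 4 libraries, 11 without 6 kPa with or without the GC correction, and 0 to 11 leaving out 1 library. For 1 kPa (0) it was 1 without 6 kPa, 2 with the GC correction added, and 0 to 1 leaving out 1 library, and for 6 kPa (0) 0 to 18. The slope (17) gave 9 with no filter, 5 with the GC correction, 31 without 6 kPa, 8 with both, and 1 to 29 leaving out 1 library, and the F test over groups (23) gave 10, 9 with no trend, 12, 39 without 6 kPa, and 2 to 38. With the GC correction the sign turned for 20 of 47 members at 60 kPa and for 7 with 25 mM glucose, with all libraries and without 6 kPa alike in number, and most of these were called neither before nor after. Those called in either fit, with the value for all libraries and then without 6 kPa, follow. At 60 kPa they were ARPC5 (-0.0076 and -0.0059), MYH9 (0.26 and 0.26) and, called without 6 kPa, ACTB (0.0835), and with 25 mM glucose ARPC5 (-0.0946 and -0.0942) and CNN3 (-0.0221 and -0.0214). Without 6 kPa, ACTB was called lower before the correction and higher after it. The cause was not tested. MYH9 on 60 kPa stood at -0.03 in scaled FPKM and 0.01 in FPKM as deposited, neither called. The 2 libraries per group and the 41 reads of MYL9 in the shallowest library limit what can be detected.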

Other observations

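Of all 7698 genes with a mean of at least 5 scaled FPKM, those whose 5 group means ran most like ACTB, by Pearson correlation over the 5 groups, were ERCC1 (0.998), NUDCD3 (0.997) and SEC24C (0.996). For TAGLN they were TMEM203 (0.998), MON1B (0.997) and PCDHGC3 (0.994), for MYL9 MAPK3 (0.999), AKR1B1 (0.998) and RNPEP (0.996), and for SRF GRIPAP1 (0.995), EZR (0.991) and DLG3 (0.989). With 5 points for each of the 7698 genes searched, these are descriptions of the pattern. The actins alone took 1.11 and 1.10% of exon reads on 60 kPa, 0.887 and 0.870% with 25 mM glucose and 1.27 and 1.32% on 400 Pa at 5 mM, and the Arp2/3 genes 0.242 and 0.240%, 0.236 and 0.240%, and 0.206 and 0.197% in the same groups.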
